A study of Mus musculus with 20 samples.

Results

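Interferon response genes are the genes that cells switch on when an interferon binds its receptor. The 39 genes described here were listed by name, as sensors, transcription factors, the ISG15 system, antiviral effectors, interferon-induced GTPases and antigen presentation genes. They were looked up by Ensembl identifier, and all 39 were found among the 19722 genes measured at 4 h and the 51912 gene identifiers measured at 24 h. RNA-seq libraries were made from slice cultures of the forebrain of mice at postnatal day 4, and every culture had received 5% horse serum. The study set slices labelled knockout (KO) for Tnfaip6 against controls; its protein TSG-6 is secreted in inflammation and attaches to the matrix sugar hyaluronan. At 4 h there were 3 KO-labelled and 3 wild-type (WT) libraries, with no sex given in the labels. At 24 h there were 4 KO-labelled and 3 heterozygous (Het) libraries labelled female, and 4 KO-labelled and 3 Het libraries labelled male. The titles and genotype fields call the 24 h controls heterozygous, which means 1 KO allele, whereas the treatment text for the same libraries speaks of WT slices. The titles are followed here, so the control differs between the times as labelled. Whether the libraries of a group stem from different animals is not labelled, and p-values here measure no more than the spread between libraries, which may be technical. Serum-free slices were not analysed here.

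Type I interferons bind the receptor of Ifnar1 and Ifnar2, whose kinases Jak1 and Tyk2 phosphorylate transcription factors, STAT2 among them. A complex that holds STAT2 and IRF9 then binds the interferon-stimulated response element (ISRE) in promoters, whereas interferon gamma acts through GAS elements. In the brain, microglia, astrocytes, vascular cells and neurons can all respond, and a low basal activity of the pathway keeps many of these genes readable without infection.

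The ISRE core searched was GAAANNGAAA, on either strand, within 250 bases before and 50 bases after RefSeq starts (GRCm38.p6). A RefSeq promoter was matched for 32 of the 39 genes, and 16 of the 32 (50%) held the core, against 3.99% of the 27025 genes in the promoter table. The GAS letters TTCNNNGAA stood in 9 of the 32 (28.1%), against 9.55% of all genes. Such a match is a description of letters and not evidence of binding. The stretches below run 5′ to 3′ on the gene's strand, start 150 bases before the RefSeq start and stop before the first transcribed base of either annotation. Capitals mark the ISRE core on either strand, and overlapping cores run together. Isg15, Ifit1 and Rsad2 are shown because they were among the genes that differed most between libraries, B2m because it is the most abundant of the 39 per length, and Cmpk2 because it is the neighbour of Rsad2 without a core.
Isg15 (chr4:156200819-156200968, minus strand): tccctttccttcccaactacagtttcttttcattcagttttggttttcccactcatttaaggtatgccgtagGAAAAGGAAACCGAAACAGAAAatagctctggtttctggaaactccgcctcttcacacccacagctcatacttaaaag
Ifit1 (chr19:34640739-34640870, plus strand): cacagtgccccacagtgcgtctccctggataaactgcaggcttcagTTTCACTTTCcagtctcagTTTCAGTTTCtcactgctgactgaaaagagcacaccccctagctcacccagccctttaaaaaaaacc
Rsad2 (chr12:26456453-26456602, minus strand): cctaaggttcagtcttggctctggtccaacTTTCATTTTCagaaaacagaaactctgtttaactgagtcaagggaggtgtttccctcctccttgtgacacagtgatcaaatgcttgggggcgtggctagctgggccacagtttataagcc
B2m (chr2:122147537-122147685, plus strand): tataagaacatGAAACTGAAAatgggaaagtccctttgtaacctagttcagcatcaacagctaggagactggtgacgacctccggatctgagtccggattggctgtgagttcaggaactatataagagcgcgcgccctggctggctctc
Cmpk2 (chr12:26469065-26469203, plus strand): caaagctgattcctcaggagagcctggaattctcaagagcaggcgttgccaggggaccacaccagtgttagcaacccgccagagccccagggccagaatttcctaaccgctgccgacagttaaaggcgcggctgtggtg

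Library totals ran from 11411532 to 15030171 reads at 4 h and from 8482933 to 18051300 at 24 h. Tnfaip6 was read in every KO-labelled library. Its reads averaged 65.7 ± 22.3 normalised reads in KO-labelled and 81.4 ± 13 in WT slices at 4 h (SD, n = 3 each). At 24 h they averaged 6.50 ± 1.52 CPM (counts relative to the library total times its TMM scaling factor) in KO-labelled and 4.61 ± 1.08 CPM in Het females, and 6.66 ± 0.916 CPM in KO-labelled and 5.15 ± 1.22 CPM in Het males (SD, n = 4 and 3). The part of the gene that was deleted is not given, so this checks no label, and genotype directions rest on the labels alone. The library labelled KO female 2 went against its sex label, with 76.6 CPM of the Y-linked gene Ddx3y and no Xist reads. Het male 1 held 107 Xist reads beside 656 of Ddx3y, against at most 5 Xist reads in the other libraries labelled male. At 4 h WT 1 and KO 1, the libraries with Xist reads, held 5655 and 2355 of them and at most 2 of Ddx3y. The other 4 h libraries held 653 to 883 Ddx3y reads and at most 3 of Xist, so each 4 h group mixed both sexes by reads. Choroid plexus RNA stood out in 3 libraries at 24 h, where the transthyretin gene Ttr reached 1465 CPM in KO female 1, 2711 in KO female 3 and 454 in KO male 3, and was under 1 CPM in each of the others. The overall spread and the medians of the 24 h comparisons are also given without these libraries. Summed markers of neurons, 10 genes, ran from 5460 to 6331 CPM over the 14 libraries at 24 h.

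The levels of the 39 genes spanned a wide range. Per kilobase of exon at 24 h, B2m, the light chain of class I major histocompatibility molecules, stood highest with 88.6 CPM, followed by the class I heavy chain gene H2-D1 with 35.9 and Bst2, the membrane tether of budding virions, with 21.4. The lowest were Mx1 and Mx2, of the family of dynamin-like antiviral GTPases, with 0.437 CPM per kilobase each. Mx2 is annotated as a polymorphic pseudogene, so its reads do not show that a working protein is made. Setting the tables side by side without a test, because time, control genotype and table differ together, 33 of 39 genes had a higher mean CPM at 24 h than at 4 h. The median ratio of 24 h to 4 h was 1.92 for the 39 genes and 1.08 for all genes. Oasl2 (7.71), an oligoadenylate synthetase-like protein, Bst2 (7.25) and Irf7 (5.41), the transcription factor that amplifies type I interferon production, had the highest ratios. Oasl1 (0.458), Rsad2 (0.459) and Mx1 (0.531) had the lowest.

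The main feature of these genes was a shared difference between libraries that bore the same label. At 24 h the ratio of the highest to the lowest library had a median of 4.94 over the 39 genes, against 1.47 over all 16013 genes tested. At 4 h these ratios were 2.36 and 1.33. Within labelled groups, the SD of the log2 level had a median of 0.62 for the 39 genes and 0.15 for all genes at 24 h, and of 0.52 and 0.14 at 4 h. Antiviral effectors were the most spread of the larger roles, with a median ratio of 9.90 at 24 h, against 2.19 for antigen presentation genes and 2.07 for transcription factors. The widest ratios at 24 h were those of Oasl1 (36.1, from 3 to 66 reads), Mx1 (32.8, from 3 to 60 reads) and Ifit1 (27.5, from 17 to 285 reads). Part of the first 2 ratios thus rests on few reads. In all 3 the highest library was KO male 3 and the lowest KO female 3. Without the 3 libraries with Ttr reads the median ratio of the 39 genes was 3.73, against 1.42 over all genes, and the median within-group SD was 0.60, against 0.15. The ratios were then 5.76 for Oasl1, 11.5 for Mx1 and 7.30 for Ifit1, and the median for antiviral effectors was 4.88. Without the library KO female 2 the median ratio was 4.94 and the median SD 0.63. Of the 32 genes with a matched promoter, those with an ISRE core had a median ratio of 4.96 at 24 h and 2.17 at 4 h, and those without one 2.44 and 1.93. Oasl1, the gene with the widest ratio at 24 h, held no core, nor did Irf7 and Ifi44. The set without a core also held every antigen presentation gene but B2m and every transcription factor but Stat2. Core and role therefore cannot be told apart here. The 7 genes with no matched promoter, Mx1 among them, are in neither set.

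**Figure D1:**
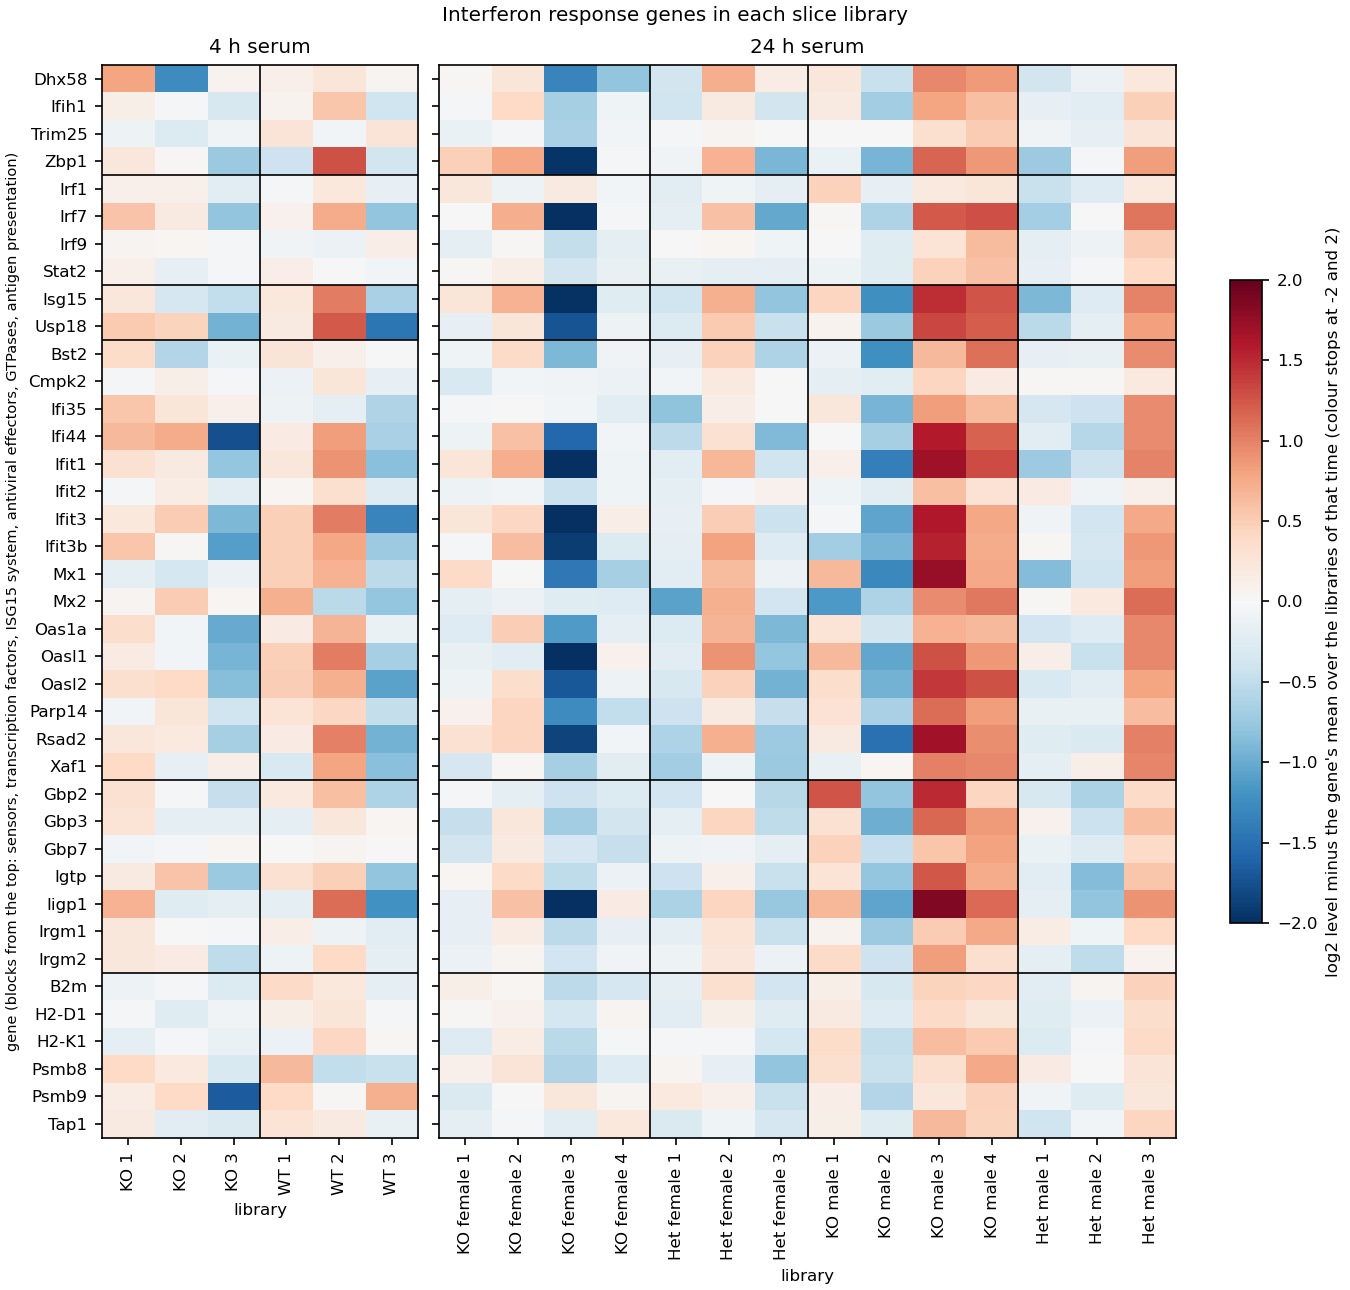
Level of each of the 39 genes in each library, as log2 level minus the gene's mean over the libraries of that time (red higher, blue lower; rows are genes grouped by role, columns are libraries, KO-labelled left of the control in each group). Whole columns are red or blue: KO male 3, KO male 4 and Het male 3 are high and KO female 3 and KO male 2 low at 24 h, and WT 2 is high and WT 3 and KO 3 low at 4 h.

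At 24 h each gene was set against its own mean over the 14 libraries. KO male 3, KO male 4 and Het male 3 had all 39 genes above that mean, with median log2 differences of 0.94, 0.75 and 0.59. KO female 3 and KO male 2 had medians of -0.66 and -0.65, with 2 and 1 genes above the mean. KO male 3 was the highest library for 25 of the 39 genes, as it was for 5.53% of all genes, and KO female 3 was the lowest for 23, as it was for 8.57% of all genes. The KO-labelled males thus included both high and low libraries. By group, the median log2 difference ran from -0.66 to 0.18 in KO-labelled and from -0.43 to 0.27 in Het females, and from -0.65 to 0.94 in KO-labelled and from -0.22 to 0.59 in Het males, so the genotypes overlapped in both sexes.

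At 4 h the medians were 0.22, 0.03 and -0.29 in the KO-labelled libraries and 0.17, 0.41 and -0.39 in the WT libraries. WT 2 was the highest library for 25 of the 39 genes, against 16.0% of all genes. WT 3 was the lowest for 19 genes and KO 3 for 11, against 17.3% and 15.5% of all genes. The highest and the lowest library therefore both bore the WT label.

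Among the sensors, Ifih1 encodes MDA5, a detector of long double-stranded RNA, and Trim25 a ubiquitin ligase that acts on the RNA sensor RIG-I. Ifih1 had 75.7, 67.9 and 55.9 normalised reads in KO-labelled slices at 4 h, against 73.4, 102 and 52.9 in WT slices. Trim25 had 268, 238 and 273 in KO-labelled slices, against 342, 275 and 343 in WT slices. The 2 groups overlapped for Ifih1 and did not for Trim25, whose closest libraries were KO 3 and WT 2. Dhx58, which encodes the RIG-I-like receptor LGP2, had 2.31, 2.78, 0.619 and 1.12 CPM in KO-labelled females at 24 h, against 1.66, 4.12 and 2.57 in Het females. In males it had 2.75, 1.54, 4.89 and 4.52 CPM in KO-labelled slices, against 1.66, 2.07 and 2.72 in Het slices. KO male 3 and KO male 4 stood well above all 3 Het males for Dhx58, KO male 1 just above them and KO male 2 below them.

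Transcription factors of the pathway were steadier, Irf7 excepted. Stat2, a part of the ISRE-binding complex with IRF9, had 439, 367 and 403 normalised reads in KO-labelled slices at 4 h, against 450, 413 and 396 in WT slices. Irf9, the DNA-binding subunit of that complex, had 256, 254 and 243 in KO-labelled slices, against 234, 227 and 271 in WT slices. Both overlapped between genotypes and varied by less than 1.23-fold over the 6 libraries. At 24 h Irf1, a factor induced most strongly by interferon gamma, had 13.5, 10.7, 13.1 and 11.1 CPM in KO-labelled females, against 9.73, 10.8 and 10.1 in Het females. In males Irf1 had 16.1, 10.3, 13.3 and 13.7 CPM in KO-labelled slices, against 8.30, 9.55 and 13.3 in Het slices. In females 3 of 4 KO-labelled libraries lay above all Het libraries for Irf1, and in males 2 of 4 did. Irf7 varied 15.4-fold at 24 h, from 2.08 CPM in KO female 3 to 32.0 CPM in KO male 4.

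Isg15, a ubiquitin-like modifier, and Usp18, the protease that removes it and also dampens the type I receptor, had the highest median ratio of any role at 24 h, 12.9. Isg15 had 43.9, 29.1 and 26.2 normalised reads in KO-labelled slices at 4 h, against 43.3, 76.9 and 23.4 in WT slices. Usp18 had 42.8, 40.6 and 14.8 in KO-labelled slices, against 33.6, 70.0 and 10.2 in WT slices. For both genes WT 2 was the highest and WT 3 the lowest library, with the KO-labelled libraries between them. At 24 h Isg15 had 9.39, 12.99, 1.63 and 6.54 CPM in KO-labelled females, against 5.81, 13.1 and 4.32 in Het females. In males it had 10.7, 3.07, 22.8 and 19.4 CPM in KO-labelled slices, against 4.00, 6.50 and 16.0 in Het slices.

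**Figure D2:**
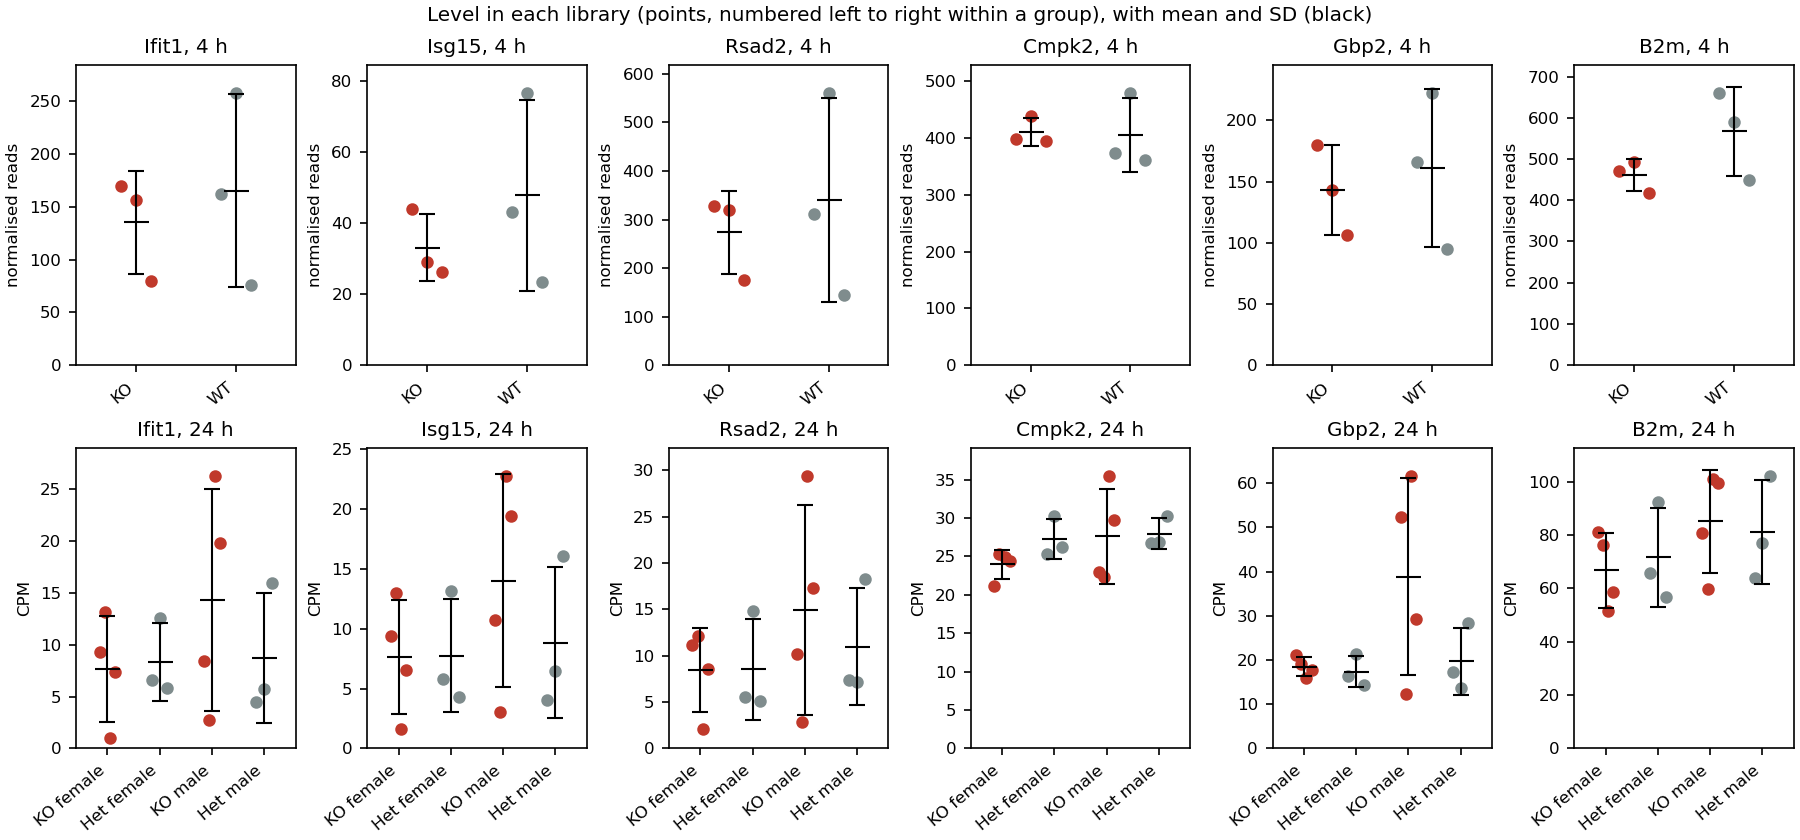
Levels of Ifit1, Isg15, Rsad2, Cmpk2, Gbp2 and B2m in each library, in normalised reads at 4 h (top) and CPM at 24 h (bottom), with KO-labelled groups in red left of their grey WT or Het controls; black marks are the mean and SD. Ifit1, Isg15 and Rsad2 spread widely within each 24 h group, while Cmpk2 stays between 21.2 and 35.5 CPM.

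The antiviral effectors held genes of very different spread side by side. Rsad2 encodes viperin, a radical enzyme that makes a chain-terminating nucleotide, and Cmpk2, a mitochondrial nucleotide kinase, supplies its substrate. Their genes start 12752 bases apart on chromosome 12 and run in opposite directions, Rsad2 at 26442746 to 26456452 on the minus strand and Cmpk2 at 26469204 to 26479837 on the plus strand. Rsad2 had 327, 319 and 176 normalised reads in KO-labelled slices at 4 h, against 312, 562 and 144 in WT slices. Cmpk2 had 398, 439 and 395 in KO-labelled slices, against 374, 480 and 361 in WT slices. The order of the libraries was alike at the top and bottom for both, WT 2 highest and WT 3 lowest, but the highest was 3.89 times the lowest for Rsad2 and 1.33 times for Cmpk2.

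At 24 h Rsad2 had 11.1, 12.2, 2.08 and 8.53 CPM in KO-labelled females, against 5.58, 14.8 and 5.15 in Het females, and 10.1, 2.83, 29.4 and 17.3 CPM in KO-labelled males, against 7.42, 7.19 and 18.3 in Het males. Cmpk2 had 21.2, 25.3, 25.0 and 24.4 CPM in KO-labelled females, against 25.4, 30.3 and 26.2 in Het females, and 23.03, 22.3, 35.5 and 29.7 CPM in KO-labelled males, against 26.7, 26.9 and 30.3 in Het males. The ratio of highest to lowest was 14.1 for Rsad2 and 1.68 for Cmpk2, and within-group SDs of the log2 level were 1.06 and 0.20. KO female 3, the lowest library for Rsad2, held a middling Cmpk2 level. Ifit1, which binds foreign RNA caps, had 9.32, 13.2, 0.957 and 7.33 CPM in KO-labelled females, against 6.56, 12.6 and 5.81 in Het females. In males Ifit1 had 8.37, 2.72, 26.3 and 19.8 CPM in KO-labelled slices, against 4.49, 5.69 and 15.9 in Het slices. Ifit2, of the same family, varied 2.07-fold at 24 h against 27.5-fold for Ifit1.

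The GTPases act on the membranes of intracellular pathogens. Irgm1, a regulator of the immunity-related GTPases, had 217, 185 and 184 normalised reads in KO-labelled slices at 4 h, against 205, 174 and 159 in WT slices. Gbp2, a guanylate-binding protein, had 180, 143 and 106 in KO-labelled slices, against 166, 223 and 94.5 in WT slices. At 24 h Gbp2 had 21.1, 19.0, 16.0 and 17.8 CPM in KO-labelled females, against 16.4, 21.3 and 14.4 in Het females. In males Gbp2 had 52.3, 12.3, 61.7 and 29.2 CPM in KO-labelled slices, against 17.2, 13.6 and 28.3 in Het slices. Here KO male 1 stood with KO male 3 at the top, whereas for Ifit1, at 8.37 CPM, it stood below Het male 3. Irgm2 had 10.03, 5.55, 13.8 and 9.60 CPM in KO-labelled males, against 6.54, 5.18 and 7.97 in Het males, and 6.93, 7.89, 5.68 and 7.17 CPM in KO-labelled females, against 7.02, 8.93 and 6.89 in Het females. Igtp overlaps Irgm2 on the same strand, and reads of close relatives such as the Gbp genes or Ifit3 and Ifit3b may be split between them.

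Antigen presentation genes ranged from the abundant class I genes to the sparsely read proteasome subunit genes Psmb8 and Psmb9, which averaged 3.38 and 1.70 CPM at 24 h. Psmb9, with 1 to 10 reads a library, had the widest ratio of the 39 genes at 4 h, 8.91. H2-D1 had 730, 622 and 702 normalised reads in KO-labelled slices at 4 h, against 802, 878 and 729 in WT slices. B2m had 472, 493 and 418 in KO-labelled slices, against 661, 590 and 450 in WT slices. WT 1 and WT 2 lay above all KO-labelled libraries for both genes, and WT 3 lay within their range. Between libraries of the same number, both genes were lower in the KO-labelled one in all 3 pairs. At 24 h B2m ran from 51.4 to 81.1 CPM in KO-labelled and from 56.7 to 92.6 CPM in Het females, and from 59.6 to 101 CPM in KO-labelled and from 64.0 to 102 CPM in Het males. Tap1, a subunit of the peptide transporter, had 12.1, 13.6, 11.8 and 16.3 CPM in KO-labelled females, against 11.3, 13.1 and 10.9 in Het females. In males Tap1 had 15.1, 11.7, 22.1 and 19.1 CPM in KO-labelled slices, against 10.4, 13.3 and 18.8 in Het slices. Tap1 overlaps the proteasome subunit gene Psmb9 on the opposite strand, and B2m overlaps Patl2. The strand setting of the counting is not given, so reads of such pairs cannot be told apart; 16 of the 39 genes overlap another annotated gene.

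**Figure D3:**
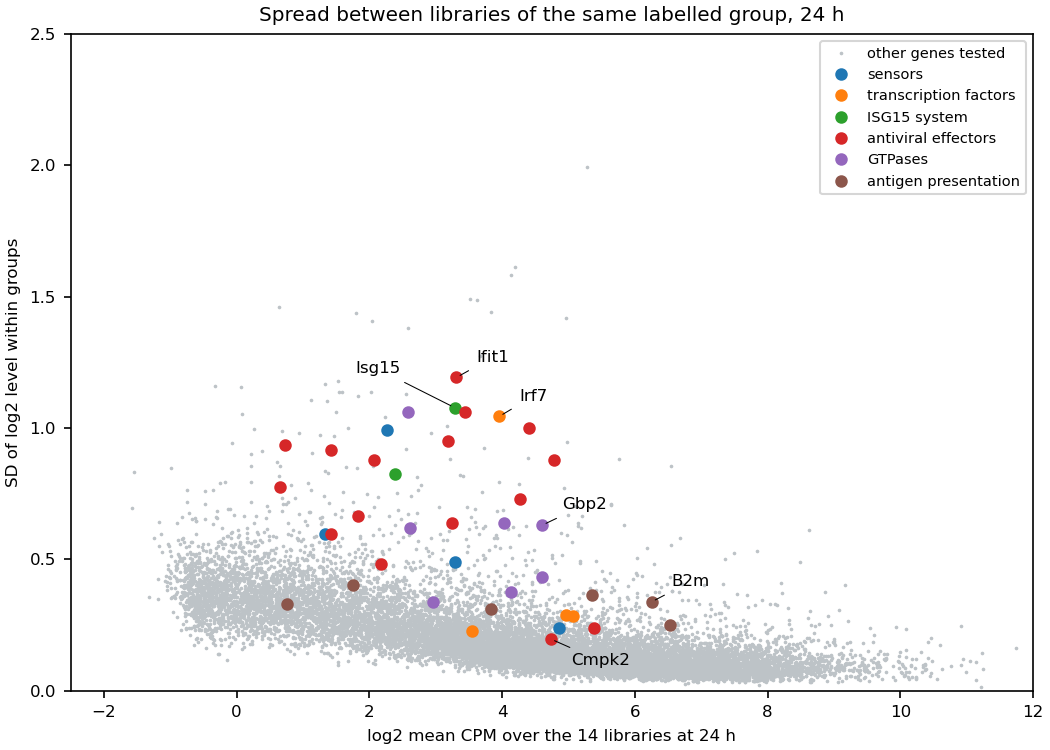
SD of the log2 level within labelled groups against log2 mean CPM at 24 h, for the 16013 genes tested (grey) and the 39 interferon response genes (coloured by role); 4 grey points lie outside the axes. Ifit1 (SD 1.19), Isg15 (1.08) and Irf7 (1.04) stand far above genes of similar level, while Cmpk2 (0.20) lies among them.

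The first genotype comparison set KO-labelled against WT slices at 4 h of serum. No gene of the 38 tested passed the limma test at an adjusted p under 0.05, as 0.0461% of the 15181 genes tested did (7 genes); Psmb9 fell below the mean value of 10 needed for testing. The smallest adjusted p of the 38 was 0.279. The median log2 fold change was -0.12, against 0.00 over all genes, and 10 of 38 lay above 0, as did 50.6% of all genes. Unadjusted p was under 0.05 for 3 of 38 (7.89%), against 13.9% of all genes, and all 3 were lower in KO-labelled slices. Trim25 had a log2 fold change of -0.30 ± 0.12 (SE, limma adjusted p = 0.279), H2-D1 of -0.23 ± 0.09 (limma adjusted p = 0.285) and B2m of -0.28 ± 0.13 (limma adjusted p = 0.331). An exact two-sided permutation test of Trim25 gave p = 0.1, the smallest that 3 libraries against 3 allow. The groups did not overlap for 2 genes, as for 19% of all genes. They were Trim25 and Ifi35, an interferon-induced leucine zipper protein with 28.5, 22.9 and 20.5 normalised reads in KO-labelled slices, against 17.7, 16.8 and 12.2 in WT slices.

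The 4 h median turned to 0.08 without WT 2 (23 of 37 genes above 0) and to 0.06 without KO 3 (23 of 38), and was -0.35 without WT 3. When replicate numbers entered the fit as blocks, 38 genes in all passed in place of 7, and none of the interferon response genes. The smallest limma adjusted p of the 38 was then 0.189, for B2m, followed by Trim25 (0.197), Oasl1 (0.236) and H2-D1 (0.265). KO-labelled libraries were lower in every pair for 6 of 38 genes (15.8%), against 19.3% of all genes, and higher in every pair for 2 (5.26%), against 19.5%. Summed markers of endothelium and pericytes were 5343, 5384 and 5603 normalised reads in KO-labelled slices, against 7266, 6260 and 6808 in WT slices, without overlap. Summed astrocyte markers were 26071, 26559 and 26472 in KO-labelled slices, against 31322, 26969 and 29222 in WT slices, also without overlap, and summed neuronal markers were higher in all 3 KO-labelled libraries. Of all single genes, 19% had groups without overlap. Microglia and macrophage sums overlapped, at 2452 to 2781 in KO-labelled and 2475 to 3067 in WT slices. So did meningeal sums (2514 to 4008 against 3461 to 4420) and choroid plexus sums (150 to 219 against 184 to 230). The part of the marker differences in the H2-D1 and B2m values was not tested. In bulk tissue, fewer cells of a type and less RNA per cell cannot be told apart.

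**Figure D4:**
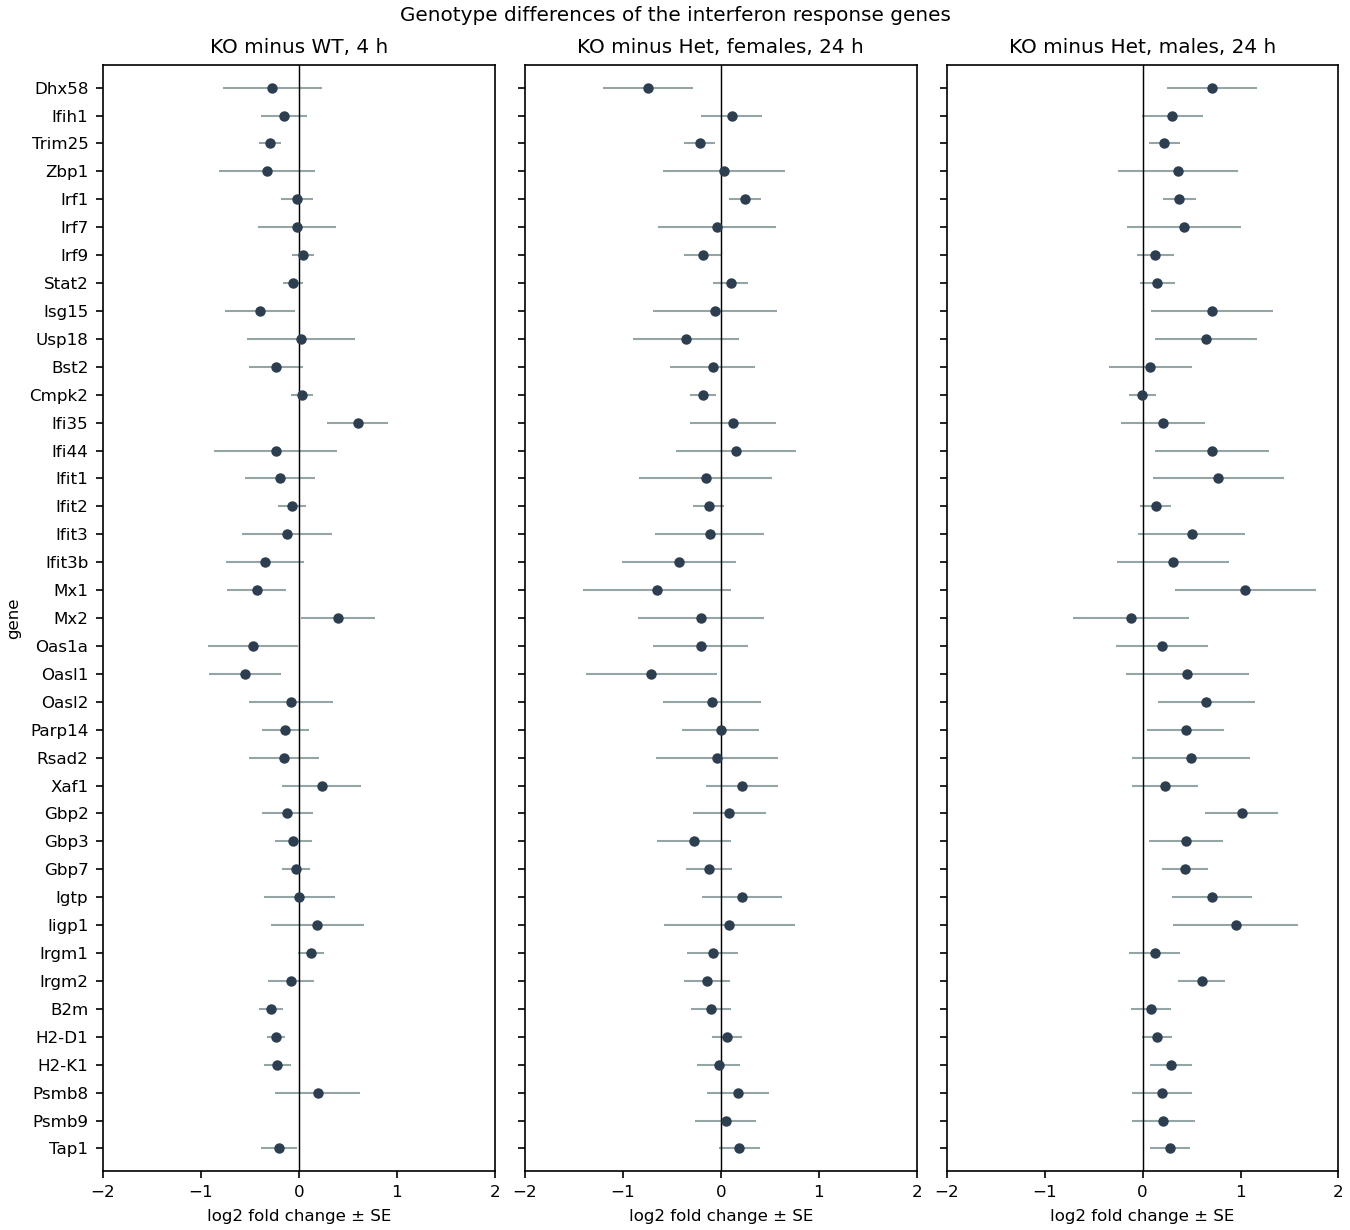
Log2 fold change with its SE for each gene (rows, by role from sensors at the top to antigen presentation at the bottom), KO minus WT at 4 h and KO minus Het at 24 h in females and in males. Most points lie left of 0 at 4 h (28 of 38) and in females (25 of 39) and right of 0 in males (37 of 39), and none passed the test.

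In females at 24 h none of the 39 genes passed the edgeR test, and 0% of the 16013 genes tested did. The smallest edgeR adjusted p of the 39 was 1.00. No gene of the 39 had an unadjusted p under 0.05, as 4.1% of all genes did. The median log2 fold change was -0.08, and 14 of 39 genes lay above 0, against 51.2% of all genes. The 3 smallest p-values belonged to Dhx58 (log2 fold change -0.75 ± 0.46, SE), Irf1 (0.25 ± 0.17) and Cmpk2 (-0.18 ± 0.13). Cmpk2 was the 1 gene whose groups did not overlap, as for 4.7% of all genes, with an exact two-sided permutation p of 0.0571 where 0.0286 is the smallest possible. Without the library KO female 2 the median was -0.27 and 10 of 39 genes lay above 0. Leaving out KO female 3 gave a median of 0.13, and leaving out Het female 2 gave 0.23. Leaving out Het female 1 or Het female 3 gave -0.16 or -0.22, and leaving out KO female 1 gave -0.13. Leaving out the 3 libraries with Ttr reads gave 0.17 (28 of 39 above 0). That left KO female 2, which went against its sex label, and KO female 4 as the only KO-labelled females.

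In males at 24 h the 39 genes leaned the other way without passing the test. None passed the edgeR test, nor did any gene of the 16013 (0%), although 37 of 39 lay above 0 (49.7% of all genes), with a median log2 fold change of 0.36. Unadjusted p was under 0.05 for 3 of 39, against 6.87% of all genes, all higher in KO-labelled males. They were Gbp2 (1.01 ± 0.37, SE, edgeR adjusted p = 0.718), Irgm2 (0.60 ± 0.24, edgeR adjusted p = 0.718) and Irf1 (0.38 ± 0.17, edgeR adjusted p = 0.719). No gene had groups without overlap, whereas 7% of all genes did. The median was 0.15 without KO male 3 (30 of 39 above 0), 0.22 without KO male 4, 0.58 without KO male 2 and 0.75 without Het male 3, so single libraries moved it. It was 0.21 without Het male 1 and 0.22 without Het male 2. Without the 3 libraries with Ttr reads it was 0.16 (30 of 39 above 0).

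Averaged over both sexes at 24 h, none of the 39 genes passed the edgeR test, as 0% of all genes did, and 30 of 39 lay above 0 (50% of all genes), with a median of 0.17. Leaving out 1 library at a time gave medians from 0.06 (without KO male 3) to 0.31 (without Het male 3), and 0.08 without the library KO female 2. Without the 3 libraries with Ttr reads the median was 0.15 (31 of 39 above 0), with KO female 2 and KO female 4 as the only KO-labelled females. Irf1 was the 1 gene with an unadjusted p under 0.05, against 6.62% of all genes, at a log2 fold change of 0.31 ± 0.12 (SE, edgeR adjusted p = 0.738). Its exact permutation test within sex, two-sided over 1225 arrangements, gave p = 0.0278, unadjusted for the other genes examined. Gbp2 followed with 0.55 ± 0.26 (edgeR adjusted p = 0.758) and Tap1 with 0.24 ± 0.15 (edgeR adjusted p = 0.815).

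The difference between the male and the female KO effect was above 0 for 39 of 39 genes (50.1% of all genes), with a median of 0.44. By DESeq2 it was above 0 for 38 of 39, with a median of 0.39. On means of log2 levels not every gene kept this sign, as Mx2 had a KO effect of -0.38 in males and 0.05 in females. None passed the edgeR test (0% of all genes), and unadjusted p was under 0.05 for Dhx58 (1.46 ± 0.65, SE, edgeR adjusted p = 0.977) and Irgm2 (0.75 ± 0.33, edgeR adjusted p = 0.977), as for 3.86% of all genes. These genes moved together from library to library, so counts of genes on 1 side of 0 do not add up as separate observations. Without the 3 libraries with Ttr reads, 16 of 39 lay above 0 and the median was -0.04. The KO-labelled females were then KO female 4 and KO female 2, which went against its sex label. Leaving out 1 library at a time gave medians from 0.13 (without KO male 3) to 0.77 (without Het male 3). The median was 0.15 without Het female 2, 0.20 without KO female 3, 0.21 without Het male 2, 0.28 without KO male 4 and 0.67 without the library KO female 2.

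Males minus females, averaged over genotypes, was likewise above 0 for 39 of 39 genes (48.4% of all genes), with a median log2 difference of 0.42. None passed the edgeR test, as 0.0187% of all genes did (3 genes), and unadjusted p was under 0.05 for 8 of 39 (20.5%), against 4.42% of all genes. The count of the 39 genes that passed, here and in the other 24 h comparisons except females, depended on the expression filter. The count over all genes depended on it in females too, as given in the last section. Xaf1, an antagonist of the apoptosis inhibitor XIAP, had 3.64, 4.25, 8.76 and 8.49 CPM in KO-labelled and 3.51, 4.49 and 8.55 in Het males, against 3.13, 4.17, 2.42 and 3.43 in KO-labelled and 2.34, 3.82 and 2.24 in Het females. KO male 3, KO male 4 and Het male 3 stood far above every female library. The other 4 male libraries, at 3.51 to 4.49 CPM, overlapped the females or lay just above their highest value of 4.17 CPM. That value came from KO female 2, which went against its sex label, and the next highest was 3.82 CPM in Het female 2. The log2 difference of Xaf1 was 0.97 ± 0.25 (SE, edgeR adjusted p = 0.943). The median of the 39 genes was 0.53 without the library KO female 2 and 0.22 without Het male 3. It was 0.20 without the 3 libraries with Ttr reads (35 of 39 above 0), with KO female 2 and KO female 4 as the only KO-labelled females.

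Interferon transcripts themselves were nearly unread. Of 13 interferon genes looked for, none was listed at 4 h. At 24 h 8 of them had no read in any library, and the other 5 shared 13 reads over 14 libraries, with at most 3 in a library. A count of 0 allows a level of up to 0.166 to 0.354 CPM, from 3 counts of each library's total, which covers counting error only. The receptor chain gene Ifnar1 ran from 86.3 to 92.4 CPM in KO-labelled and from 86.2 to 91.0 in Het females, and from 84.1 to 99.6 CPM in KO-labelled and from 93.8 to 96.6 in Het males.

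None of the other pathway genes tested passed in any genotype comparison. Of 69 other interferon-induced genes, 34 of 51 tested lay below 0 at 4 h, with a median of -0.15, and in males at 24 h 60 of 66 lay above 0, with a median of 0.29. At 4 h the 3 smallest p-values in these lists were those of Socs3, a feedback inhibitor of JAK kinases (-0.32 ± 0.10, SE, limma adjusted p = 0.19), Lgals9, a galectin (-0.48 ± 0.17, limma adjusted p = 0.229), and Ticam1, the adaptor of Toll-like receptor 3 (0.47 ± 0.17, limma adjusted p = 0.244). Over both sexes at 24 h they were those of Oas1c, an oligoadenylate synthetase relative (0.78 ± 0.22, SE), Gbp5, a guanylate-binding protein (0.97 ± 0.35), and Cxcl10, a chemokine that attracts T cells (1.01 ± 0.38), with an edgeR adjusted p of 0.738 each. Cxcl10 had 134, 10.3, 77.7 and 42.1 CPM in KO-labelled males, against 16.4, 8.40 and 27.8 in Het males. It had 16.4, 20.5, 15.9 and 18.6 CPM in KO-labelled females, against 18.5, 18.7 and 14.3 in Het females. Cxcl10, and Gbp5 at 37.1 CPM, were highest in KO male 1, a library with middling Ifit1 and Isg15 levels.

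Marker sums of other cells were read in the same libraries. Summed microglia and macrophage markers, 15 genes, ran from 459 to 590 CPM in KO-labelled and from 437 to 549 in Het females, and from 417 to 487 CPM in KO-labelled and from 458 to 600 in Het males. KO male 3, the highest library for most interferon response genes, had the lowest microglia sum of the 14, 417 CPM. KO female 3, the lowest for most of them, had the lowest endothelial and pericyte sum, 345 CPM against 400 to 513 in the others, and the lowest meningeal sum, 245 CPM against 421 to 672. The next lowest endothelial and pericyte sum, 400 CPM, was that of KO male 3. Among 11 lymphocyte and natural killer cell markers at 24 h, Cd3e and Ncr1 had no read in any library, and the sum stayed between 3.75 and 6.56 CPM. Neutrophil markers summed to at most 3.75 CPM, in KO male 1. At 4 h 2 of the 11 lymphocyte markers and 1 of the 8 neutrophil markers were listed. The part of these cells and of the Ttr reads in the library differences was not tested.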

How the data were processed

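Per the submitters' processing notes, the tools were TopHat2, HTSeq and DESeq2 1.38.3 and the build GRCm38 (mm10), with no roles given; annotation release and strand setting: not given in the sources used here. For 4 h the authors deposited a signal, read counts over 1 size factor per library, from which whole reads could be recovered for 100% of values within 0.05. For 24 h the authors deposited raw counts. At 4 h limma 3.58.1 with an intensity trend was fitted to log2(value + 1) for genes with a mean of at least 10, which makes fold changes of low genes too small (scale: log2(value + pseudocount)). At 24 h the quasi-likelihood F test of edgeR 4.0.16 (R 4.3.3) was run with TMM scaling and the default expression filter, with 1 mean per genotype and sex over 14 libraries. P-values are two-sided and Benjamini-Hochberg adjusted over all genes tested, with a threshold of 0.05. Where all 4 h libraries are set on a CPM scale, values were divided by their mean total. The fits were tested on simulated data.

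The genes and lists were chosen with earlier results of these data known. Values per library are given for the 2 most abundant genes of each role at 4 h and the 3 smallest p-values of each genotype comparison; Dhx58 and Irgm2 for the sex difference, Ifi35, Ifit1, Ifit2, Irf7, Oasl1, Mx1 and Xaf1 were chosen after their values were seen. Same-numbered 4 h libraries deviated together (r = 0.26, 0.14 and 0.18). The libraries numbered 1, WT 1 and KO 1, were those with Xist reads (5655 and 2355). Differently numbered libraries were not compared, so pairing and shared sex cannot be told apart in these r values. The numbers, which come from the sample titles, were taken as pairs there, and the blocked count is given beside the result. Sequences are from RefSeq (GRCm38.p6) and coordinates from GENCODE for GRCm38, 1-based.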

Additional observations from a re-analysis of the deposited data

Results flagged for a closer look

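Of 78 sets of 4 libraries examined (39 genes in the KO-labelled groups of each sex at 24 h), 3 had a library set apart from the other 3; chance gives about 1 in 20. Ifit2 was 30.4 CPM in KO female 3, below the 38.2 to 39.7 CPM of the other KO-labelled females. H2-D1 was 71.3 CPM in the same library, below 93.2 to 96.6 CPM in the others. Gbp7, a guanylate-binding protein, was 19.1 CPM in KO female 2, the library whose Y-linked reads go against its label, above 12.1 to 13.2 CPM in the other KO-labelled females.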

How the results depend on the processing

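The count of interferon response genes past the threshold was 0 in 116 of 120 pairs of setting and comparison. The exceptions came without the expression filter at 24 h. Of the 39 genes, 6 then passed in males, beside 220 genes called in all, and 1 over both sexes, beside 263 in all. For the difference between sexes in the KO effect 3 of 39 passed, beside 165 in all. For males minus females 20 of 39 passed, beside 215 in all. In females 0 of 39 passed, beside 180 in all. Those calls were among the 51912 identifiers at 24 h, less the 21642 without a read in any library. The cause was not tested. At 4 h genes called in all were 7, against 161 by DESeq2, 28 with a robust spread, 38 with the replicate block, 1 without the libraries with Xist reads, and 1 to 211 leaving out 1 library each. DESeq2 at 24 h called 1 gene in females, 1 in males, 5 over both sexes, 1 for the difference and 5 for males minus females. At 24 h same-numbered libraries did not deviate together (r from -0.12 to 0.09); the replicate block there called 6 genes in females, 6 over both sexes and 4 for the difference, 0 of them listed here, and gives no value for males minus females. It moved the median of the listed genes to 0.11 (28 of 39 above 0) in males, 0.00444 (22) over both sexes and 0.23 (30) for the difference. In that fit KO female 4 and KO male 4 had no same-numbered Het library, so they added nothing to the KO effect. Leaving out 1 library gave 0 to 2 genes over both sexes and 2 to 9 for males minus females (main count 3), and leaving out the 3 libraries with Ttr reads, chosen after seeing the data, gave 0. Usp18 at 4 h changed sign, at 0.02, to -0.20 by edgeR, -0.21 by DESeq2, -0.00742 with pseudocount 5 and -0.13 without the libraries with Xist reads. Leaving out 1 library at 4 h gave ranges across 0 for Usp18 (-0.69 to 0.64), Rsad2 (-0.66 to 0.31), Isg15 (-0.82 to 0.0174), Gbp2 (-0.46 to 0.16), Ifih1 (-0.39 to 0.0824), Cmpk2 (-0.0460 to 0.16), Stat2 (-0.12 to 0.00426) and Irf9 (-0.00742 to 0.12). Depth limits Mx1, Mx2 and Oasl1 at 24 h most, with 2 or 3 reads in the library where each had the fewest.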
